A study of Mus musculus with 84 samples.

Results

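Astrocytes release or display proteins that act on synapses, and 10 genes for such proteins were followed here through mouse astrocytes sorted from brain and spinal cord. The genes were taken by name, and all 10 were found by Ensembl identifier among the 48526 gene identifiers of the EAE count table and among the 25773 identifiers of the subtype count table. They were the thrombospondins *Thbs1*, *Thbs2* and *Thbs4*, the matricellular pair *Sparcl1* (hevin) and *Sparc*, the glypicans *Gpc4*, *Gpc5* and *Gpc6*, the BMP antagonist *Chrdl1* and the engulfment receptor *Megf10*. Of these proteins the thrombospondins, hevin, SPARC and Chrdl1 are secreted, the glypicans are held on the membrane by a lipid anchor from which they can be shed, and Megf10 is a transmembrane receptor, so the heading of secreted factor covers *Megf10* only loosely.

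As background, thrombospondins from astrocytes promote the formation of excitatory synapses through the neuronal receptor α2δ-1, hevin bridges adhesion proteins of the presynaptic and postsynaptic membranes, and SPARC opposes the action of hevin. *Gpc4* and *Gpc6* proteins recruit AMPA-type glutamate receptors to young synapses, Chrdl1 favours the switch to mature AMPA receptors, and Megf10 takes part in the removal of synapses by astrocytes. In experimental autoimmune encephalomyelitis (EAE), an inflammatory demyelinating disease raised in mice by immunization with a myelin peptide, the spinal cord carries most of the lesions.

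The series held 84 libraries of 3′-end RNA tags. For EAE, 66 libraries came from female C57BL/6 mice, whose age is given as 10 weeks at induction and not at collection. The mice were unimmunized (C) or had been given a MOG peptide in complete Freund's adjuvant with pertussis toxin. Immunized mice were taken with a limp tail (E1), with complete paralysis of the hind legs (E4) or in chronic disease (Ech). For the subtypes, 15 libraries came from naive wildtype FVB/N mice and 3 from primary neonatal astrocytes of C57BL/6J cerebrum, which were the cells left in the flask after microglia had been shaken off and which had received L929-conditioned medium. Acutely isolated cells were sorted as viable, CD11B-negative, CD45-negative and ACSA-2-positive and were split by the glutamate transporter GLAST into GLASTneg and GLASTpos cells, in forebrain (FB, subtypes alone) and hindbrain (HB), while spinal cord (SC) gave GLASTneg cells alone. ACSA-2 is the product of *Atp1b2* and GLAST that of *Slc1a3*, so these 2 genes define the gate. Cells of up to 2 mice were pooled per library. The EAE groups held 5 libraries each for the 3 control populations and for E1 SC, 4 for Ech HB GLASTpos and 6 for each of the other groups, and the 6 subtype groups held 3 each. The EAE titles carry a number that recurs in libraries of other populations of the same stage, but no label says that it marks a mouse, so it was used for an added block in the comparisons between populations and the p-values measure the spread between these libraries.

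EAE libraries held 1313682 to 4895220 counts with a median of 2936680, isolated FVB/N libraries 416768 to 1269316, and cultured libraries 2183464 to 8188074. Levels are given as CPM, the count of a gene relative to the TMM-scaled total of its library. Since 1 transcript gives about 1 tag whatever its length, but the share of tags kept near a gene's end differs, levels are compared between groups and not between genes. A gene was treated as at the floor in a library that held 3 counts or fewer, which was 0.613 to 2.28 CPM in the EAE libraries and 2.36 to 7.20 CPM in the isolated FVB/N libraries. Log2 fold changes carry their standard error (SE). A gene was called at a Benjamini-Hochberg adjusted p under 0.05 in edgeR's 2-sided quasi-likelihood test over all genes of the fit. In such bulk samples fewer cells of a type and less RNA per cell cannot be told apart.

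Some facts of the libraries bear on what follows. The summed level of 10 astrocyte markers (*Slc1a2*, *Slc1a3*, *Aldh1l1*, *Aqp4*, *Gfap*, *S100b*, *Fgfr3*, *Sox9*, *Gja1*, *Atp1b2*) had group means of 21270 to 27840 CPM in the 8 hindbrain groups of the EAE table, but in SC it went from 16500 ± 2004 (SD, n = 5) at C to 9961 ± 7169 (n = 5) at E1, 3234 ± 707 (n = 6) at E4 and 4960 ± 1021 (n = 6) at Ech. The summed level of 9 oligodendrocyte markers in SC had medians of 17210, 38550, 48340 and 29550 CPM at the same stages, beside astrocyte medians of 17010, 7308, 3296 and 5443 CPM. It stood above the astrocyte sum in 3 of 5 control, 5 of 5 E1, 6 of 6 E4 and 6 of 6 Ech libraries of a population sorted as astrocytes. In the FVB/N libraries, 12 of 15 carried another group's name in the study's own normalised counts than in their labels, and the marker sums went with the former, as set out further down. One E1 SC library, replicate 1, was named spinal cord in its title and hindbrain in another field, and the title was used. All E1 SC libraries, this one among them, held at least 103.5 CPM of 10 trunk Hox genes. No hindbrain library of the EAE table held above 31.44 CPM of them, so the markers of this library go with its title.

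The promoters of 4 of the members that fell together in diseased spinal cord are printed here for reference beside the values below, each as the 250 bases before and the 50 bases after the RefSeq transcription start (GRCm38.p6), 5′ to 3′ on the gene's strand, with the nuclear factor I half-site TTGGC, or its reverse complement GCCAA, in capitals. RefSeq promoters were at hand for 5 of the 10 members. The *Gpc4* promoter lies at chrX:52164874-52165173 on the minus strand, that of *Gpc5* at chr14:115091965-115092264 on the plus strand, that of *Thbs2* at chr17:14694213-14694512 on the minus strand and that of *Sparc* at chr11:55420031-55420330 on the minus strand.
Gpc4: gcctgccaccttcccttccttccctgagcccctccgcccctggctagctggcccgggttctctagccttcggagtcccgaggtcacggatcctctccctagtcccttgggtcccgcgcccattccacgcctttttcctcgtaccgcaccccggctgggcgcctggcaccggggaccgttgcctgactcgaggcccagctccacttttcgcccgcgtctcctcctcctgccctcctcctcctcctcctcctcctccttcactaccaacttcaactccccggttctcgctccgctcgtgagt
Gpc5: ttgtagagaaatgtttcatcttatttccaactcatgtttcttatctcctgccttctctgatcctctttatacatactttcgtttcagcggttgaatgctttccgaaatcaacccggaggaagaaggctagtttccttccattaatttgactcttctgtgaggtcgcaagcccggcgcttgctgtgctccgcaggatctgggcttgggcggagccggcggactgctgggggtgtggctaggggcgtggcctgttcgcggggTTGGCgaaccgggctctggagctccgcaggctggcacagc
Thbs2: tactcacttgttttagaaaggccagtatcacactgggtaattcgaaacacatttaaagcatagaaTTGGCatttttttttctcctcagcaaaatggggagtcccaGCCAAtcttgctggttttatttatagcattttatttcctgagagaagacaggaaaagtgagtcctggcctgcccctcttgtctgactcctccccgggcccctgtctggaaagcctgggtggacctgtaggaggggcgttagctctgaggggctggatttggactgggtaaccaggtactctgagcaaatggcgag
Sparc: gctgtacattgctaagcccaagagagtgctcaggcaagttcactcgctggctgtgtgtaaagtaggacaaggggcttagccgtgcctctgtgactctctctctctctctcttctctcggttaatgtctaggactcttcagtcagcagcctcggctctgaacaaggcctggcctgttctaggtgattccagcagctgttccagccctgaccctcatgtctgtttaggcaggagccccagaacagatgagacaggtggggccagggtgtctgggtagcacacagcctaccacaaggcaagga

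The 4 sequences had little in common in the letters searched. The half-site occurred 2 times in *Thbs2*, 1 time in *Gpc5* and not in *Gpc4* or *Sparc*, and 46.7% of the 32851 promoters of this length held it on either strand. A GC box, GGGCGG, occurred 1 time each in *Gpc4* and *Gpc5* (35.7% of all promoters held one), and a TATA box, TATAAA, 1 time each in *Gpc5* and *Thbs2* (13.6%). None of the 4 held TTCNNNGAA, the core of a STAT site, which 8.3% of all promoters held. GC content was 66.7% in *Gpc4*, 55.3% in *Sparc*, 54.7% in *Gpc5* and 48.3% in *Thbs2*. The fifth promoter, that of *Thbs4* (chr13:92794769-92795068, minus strand), held 1 half-site and 3 GC boxes. These are matches of letters and say nothing about which factors bind.

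The first question was how the 10 genes changed in spinal cord astrocytes through EAE. Relative to unimmunized controls, most of them fell at E4 and Ech, led by *Sparcl1*, *Gpc5*, *Gpc4*, *Gpc6* and *Thbs2*, with smaller falls of *Sparc* and *Megf10*, and *Sparcl1* and *Megf10* had already fallen at E1. At E4, 8 of 10 members were called, 7 lower and 1 higher, where 22.4% of all 23324 genes were called (12.7% lower, 9.76% higher). With the added requirement of a log2 fold change above 1 or below -1, 7 members passed, and 17.9% of all genes did. At Ech, 7 of 10 were called, all 7 lower, where 18.7% of all genes were called (11.0% lower), and at E1 2 of 10 were called, both lower, where 8.42% of all genes were called (4.48% lower). The median log2 fold change of the members was -2.43 at E4, -1.71 at Ech and -0.72 at E1 (-2.34, -1.71 and -0.62 with genes of a group wholly at the floor set to their bound), and the median over all genes was 0 at each stage. Between Ech and E4, 4 of 10 members were called, *Gpc6* higher and *Thbs1*, *Thbs2* and *Megf10* lower at Ech, where 4.45% of all genes were called.

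**Figure D1:**
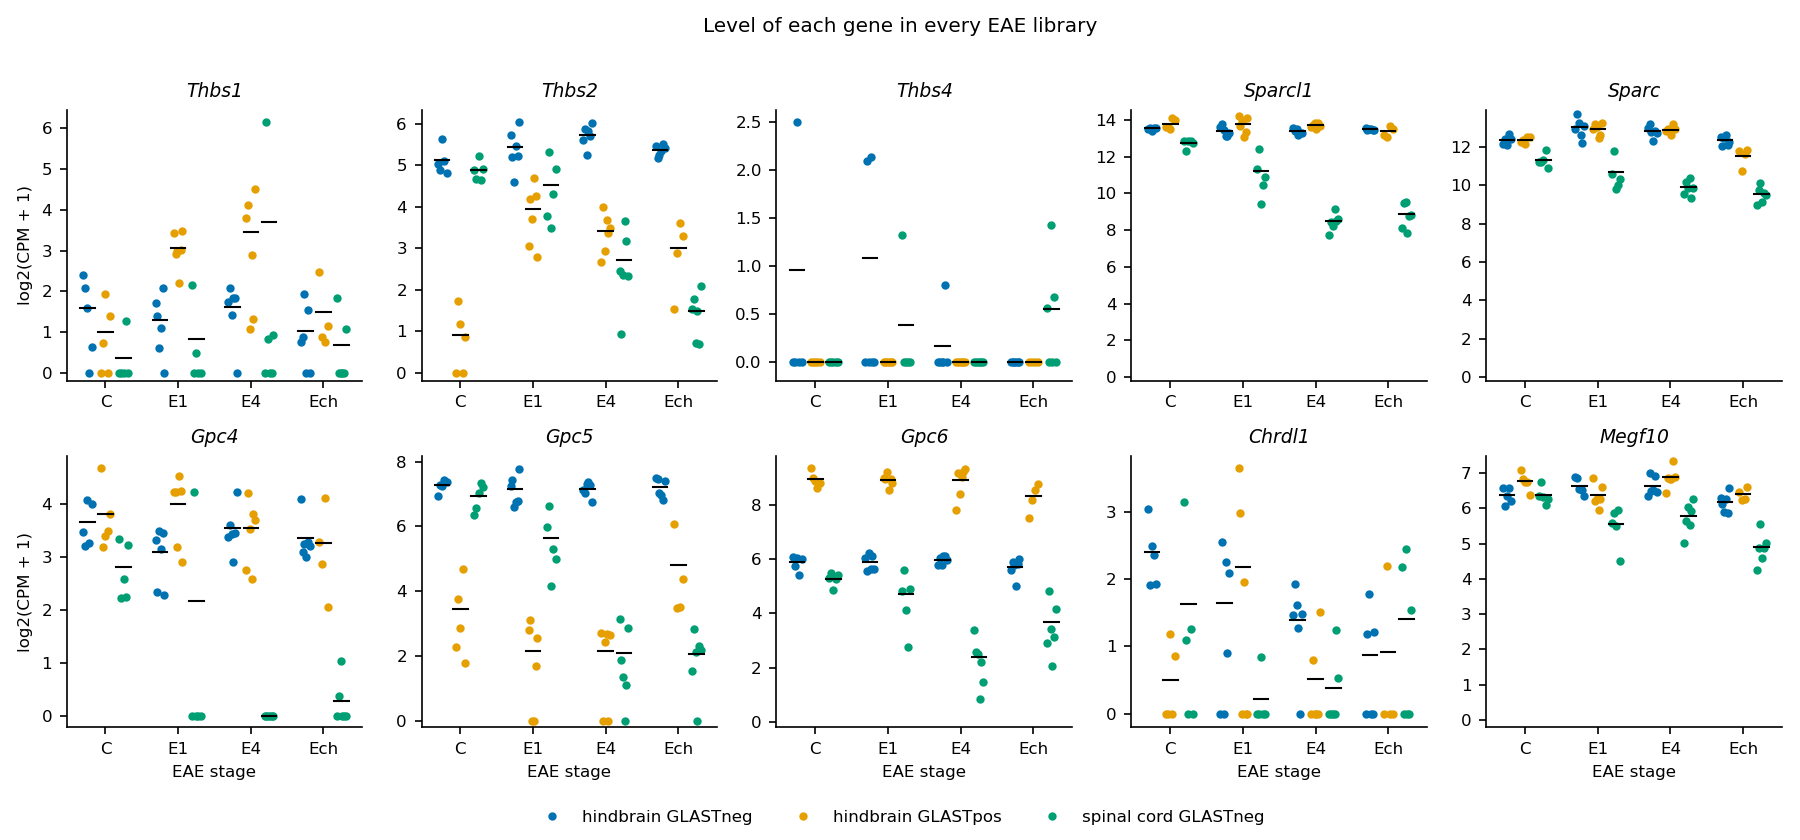
Level of each member in every EAE library. Each panel is 1 gene, the x axis gives the EAE stage and the colour the population, the y axis gives log2 of CPM plus 1, each point is 1 library and each bar the group's mean CPM on that scale. In SC GLASTneg cells *Sparcl1* stood between 4987 and 7504 CPM in the 5 control libraries and between 212.7 and 565.2 CPM in the 6 E4 libraries, while the hindbrain libraries stood at 8555 CPM or above.

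Among the matricellular proteins, *Sparcl1*, which encodes hevin (chr5:104079111-104113733, minus strand), showed the best measured fall. The 5 control SC libraries held 4987, 6859, 7457, 7485 and 7504 CPM, the 5 E1 libraries 679.5, 1431, 1903, 2573 and 5532 CPM, the 6 E4 libraries from 212.7 through a median of 352.6 to 565.2 CPM, and the 6 Ech libraries from 227.2 through 438.2 to 734.8 CPM. The E4 and Ech libraries lay wholly below the controls and E1 lay between, with 1 E1 library inside the control range. The log2 fold change was -1.50 ± 0.27 (SE) at E1 (adjusted p = 6.8e-05), -4.24 ± 0.28 at E4 (adjusted p = 1.7e-20) and -3.86 ± 0.28 at Ech (adjusted p = 6.1e-19). Ech did not differ from E4 by a called amount.

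*Sparc* (chr11:55394500-55423183, minus strand), whose protein opposes hevin at synapses, fell less. Control libraries held 1889, 2343, 2367, 2519 and 3591 CPM, E1 libraries 899.1, 1020, 1299, 1528 and 3486 CPM, E4 libraries from 635.3 through 911.5 to 1305 CPM and Ech libraries from 501.3 through 736.1 to 1124 CPM. All E4 and Ech libraries were below all controls, and 4 of 5 E1 libraries were. The log2 fold change was -1.43 ± 0.24 at E4 (adjusted p = 1.4e-06) and -1.76 ± 0.24 at Ech (adjusted p = 1.1e-08), and at E1 it was -0.63 ± 0.25 and missed the threshold (adjusted p = 0.0972). Partner genes were counted beside the share of all genes called at E4, which was 12.7% lower and 9.76% higher. Of 12 other SPARC-family and hevin-partner genes, 5 fell and 1 rose at E4, among them the follistatin-like *Fstl1* (58.7 ± 15.1 at C to 6.56 ± 2.77 CPM at E4, log2 fold change -3.15), while the testican *Spock1* rose (126 ± 61.7 to 277 ± 72.4 CPM, 1.13).

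The glypicans fell by more. *Gpc5* (chr14:115092215-116525179, plus strand) held 81.4, 93.5, 129.7, 149.2 and 160.0 CPM in the controls and 16.99, 30.7, 38.4, 61.7 and 97.5 CPM at E1, and had a median of 2.13 CPM at E4 (0 to 7.90) and of 3.47 CPM at Ech (0 to 6.11). Every E4 and Ech library was below 7.90 CPM or at it, far under the lowest control, whereas E1 overlapped the controls. The log2 fold change was -5.37 ± 0.61 at E4 (adjusted p = 3.8e-11) and -5.23 ± 0.59 at Ech (adjusted p = 4.1e-11), and -1.32 ± 0.52 at E1 (adjusted p = 0.0968). *Gpc6* (chr14:116925315-117976544, plus strand), a neighbour of *Gpc5* on chromosome 14, held 27.95, 37.9, 38.4, 42.1 and 43.9 CPM in the controls and 5.82, 16.6, 27.4, 29.2 and 47.9 CPM at E1. Its E4 libraries ran from 0.778 through 4.16 to 9.59 CPM and its Ech libraries from 3.18 through 8.76 to 27.2 CPM, all below the controls. It fell by 3.21 ± 0.36 on the log2 scale at E4 (adjusted p = 3.0e-11) and by 1.67 ± 0.32 at Ech (adjusted p = 4.8e-05), and unlike *Gpc5* it was higher at Ech than at E4 (log2 fold change 1.54, adjusted p = 0.0037), a call lost without Ech replicate 2 (1.13, adjusted p = 0.0543) and with a term for the library's last number in its title, up to 56 or above (1.02, adjusted p = 0.231).

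*Gpc4* (chrX:52053021-52165252, minus strand) was low throughout. Control libraries held 3.73, 3.74, 5.02, 8.43 and 9.19 CPM, 4 of 5 E1 libraries held 0 and the other 17.8 CPM, all 6 E4 libraries held 0, and Ech libraries ran from 0 to 1.06 CPM. Against the detection floor of the shallowest E4 library, E4 was at least 3.56-fold lower than the controls. The test called the gene at E4 (adjusted p = 1.8e-06) and at Ech (adjusted p = 9.9e-05), where the fitted log2 fold change of -4.32 ± 0.87 depends on the prior count. Of 12 other glypicans and glypican partners, 2 fell and 1 rose at E4, near the share of all genes. The AMPA receptor subunit *Gria1*, which was also on the list of Bergmann glia markers, fell from 165 ± 61.7 to 7.86 ± 4.60 CPM (log2 fold change -4.36), the heparan sulfate-binding phosphatase *Ptprs* from 61.4 ± 12.2 to 40.4 ± 15.1 CPM (-0.61), and *Gpc1* rose from 33.6 ± 6.31 to 57.9 ± 15.4 CPM (0.78).

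Among the thrombospondins, *Thbs2* (chr17:14665500-14694235, minus strand) fell at the late stages. It held 23.9, 24.4, 28.5, 29.3 and 36.7 CPM in the controls, 10.3, 12.7, 18.8, 29.0 and 38.7 CPM at E1, from 0.899 through 4.33 to 11.7 CPM at E4 and from 0.5996 through 1.85 to 3.29 CPM at Ech. E4 and Ech lay below all controls. The log2 fold change was -2.34 ± 0.42 at E4 (adjusted p = 9.7e-06) and -3.99 ± 0.46 at Ech (adjusted p = 9.8e-11), and Ech was below E4 (-1.65, adjusted p = 0.018), a difference that missed the threshold without E4 replicate 4 or without Ech replicate 3 or 5 (log2 -1.33 to -1.48).

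*Thbs1* (chr2:118111876-118127133, plus strand), the thrombospondin of platelets and activated cells, rose at E4 through a single library. Control libraries held 0 to 1.40 CPM, and the E4 libraries had a median of 0.389 CPM, with 70.1 CPM (156 counts) in E4 replicate 2. That library also had 3396 CPM over 12 myeloid markers, where the median of the E4 group was 100.5 CPM. Against the floor of the controls the E4 mean was at least 8.04-fold higher, and the fitted log2 fold change of 5.38 ± 1.54 (adjusted p = 0.0061) was 0.41 without that library (adjusted p = 0.966), and the lower level at Ech than at E4 (-4.12, adjusted p = 0.044) became 0.85 (adjusted p = 0.851). Whether myeloid cells gave these tags was not tested. *Thbs4* (chr13:92751590-92794818, minus strand) was at 0 in all C and E4 SC libraries and at most 1.69 CPM at Ech. Of 14 other genes for thrombospondins and their receptors, 3 fell and 4 rose at E4, with the calcium channel subunit *Cacna2d2* (119 ± 40.7 to 16.1 ± 3.31 CPM, log2 fold change -2.89) and the reelin receptor *Lrp8* (28.6 ± 13.9 to 7.34 ± 2.73 CPM, -1.96) lower and *Vldlr* (66.8 ± 50.3 to 140.1 ± 41.6 CPM, 1.06) higher.

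*Megf10* (chr18:57133090-57297467, plus strand), the engulfment receptor, was called lower at all 3 stages, by less than *Sparcl1* at each. Its control libraries held 67.4, 75.9, 78.2, 80.4 and 105.5 CPM and its E1 libraries 21.7, 44.2, 47.3, 57.4 and 61.3 CPM, with no overlap. E4 ran from 31.6 through 53.8 to 75.9 CPM and Ech from 18.1 through 28.2 to 45.9 CPM, so that E4 overlapped the controls and Ech did not. The log2 fold change was -0.82 ± 0.22 at E1 (adjusted p = 0.011), -0.59 ± 0.21 at E4 (adjusted p = 0.0347) and -1.48 ± 0.21 at Ech (adjusted p = 7.7e-08). The E4 call was lost when any of 5 libraries was left out (C replicate 3, E4 replicates 1, 2, 4 and 5, with -0.44 to -0.56) and with the term for the title's last number (-0.40, adjusted p = 0.429), and the E1 call without E1 replicate 5 (-0.63, adjusted p = 0.0715). Ech was lower than E4 (-0.89, adjusted p = 0.0036). Of 14 other engulfment genes, 7 fell and 4 rose at E4. The adaptor *Gulp1* (13.2 ± 3.15 to 0.572 ± 0.484 CPM, log2 fold change -4.59) and the TAM-receptor ligand *Gas6* (147 ± 38.1 to 28.8 ± 27.2 CPM, -2.32) fell, and the TAM receptor *Tyro3* (241 ± 109 to 522 ± 164 CPM, 1.11) and the ligand *Pros1* (41.6 ± 10.8 to 85.1 ± 26.3 CPM, 1.03) rose.

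*Chrdl1* (chrX:143285674-143394262, minus strand), the secreted BMP antagonist, was near the floor in the EAE table. SC controls held 0 to 7.87 CPM with a median of 1.15 CPM, no E1 library passed the floor, 1 of 6 E4 and 3 of 6 Ech libraries did, and the gene was not called at any stage. Of 17 genes of the BMP axis, 16 were tested, and 4 fell and 1 rose at E4. The BMP target *Id2* fell from 617 ± 66.4 to 40.0 ± 30.9 CPM (log2 fold change -3.95), the inhibitory *Smad7* rose from 54.8 ± 32.8 to 152 ± 66.4 CPM (1.46), and *Nog*, for another BMP antagonist, was called lower, from 2.17 ± 2.15 CPM to 0 in all 6 E4 libraries. Of 18 further astrocyte genes with roles at synapses, 9 fell and 3 rose at E4, such as *Wnt7a* (48.5 ± 12.6 to 1.38 ± 1.85 CPM, log2 fold change -5.06) and the microglia-directed cytokine *Il33* (444 ± 197 to 1278 ± 398 CPM, 1.53). At Ech, where 18.7% of all genes were called (11.0% lower), the counts of called genes, higher and lower, were 1 and 2 of 14 for thrombospondin receptors, 2 and 3 of 12 for the SPARC and hevin list, 3 and 1 of 12 for the glypican list, 0 and 4 of 16 for the BMP axis, 3 and 6 of 14 for engulfment and 1 and 4 of 18 for the other synapse factors.

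**Figure D2:**
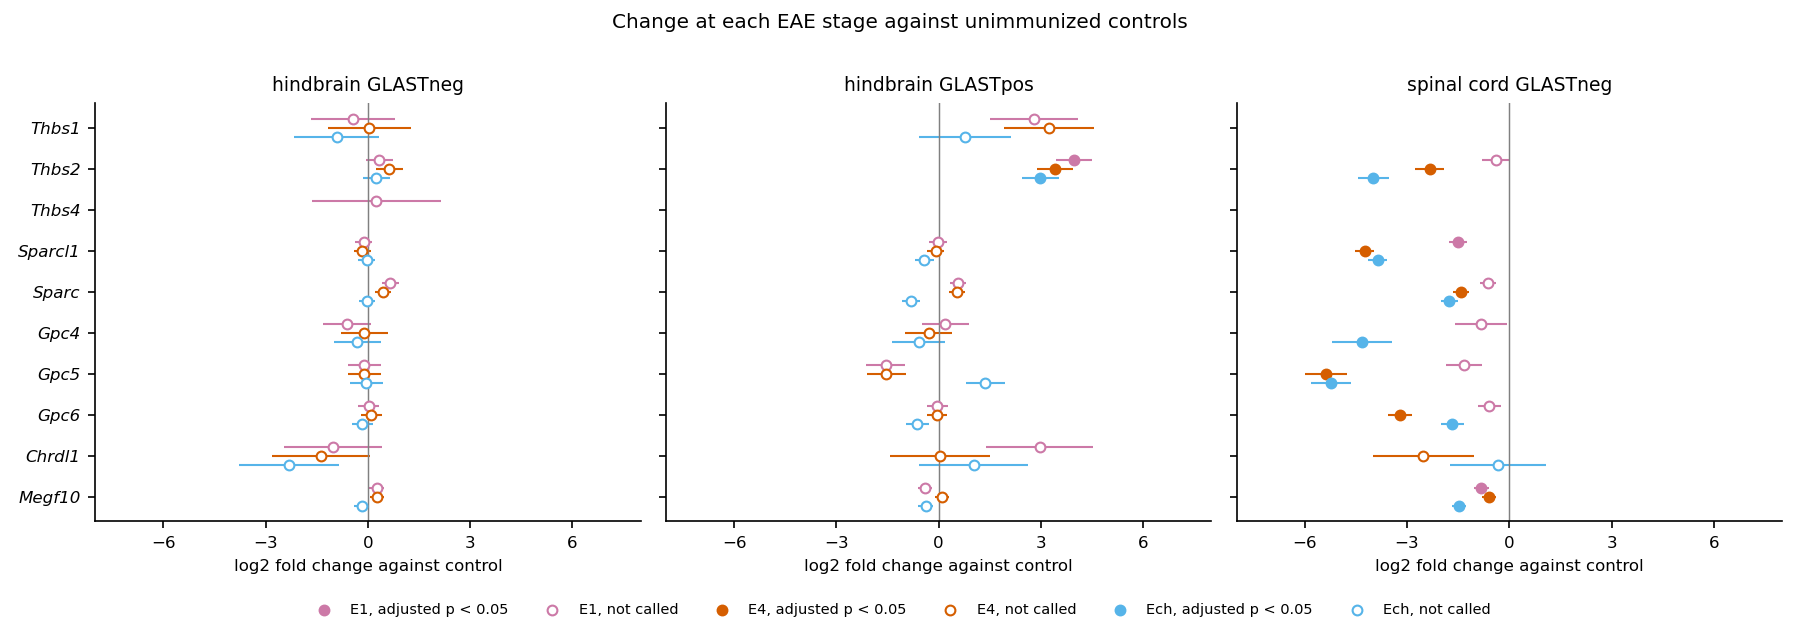
Log2 fold change of each member against unimmunized controls in the 3 populations and 3 stages of EAE. The x axis gives the log2 fold change and the y axis the gene, each point is the fitted value with its SE as a bar, filled points passed an adjusted p of 0.05, and no point is drawn where all libraries of either group were at the floor. In SC GLASTneg cells at E4 *Sparcl1* stood at -4.24 and *Gpc5* at -5.37, and in hindbrain the filled points were those of *Thbs2* in GLASTpos cells.

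Markers of several cell types moved in SC at the same stages as the members, and their part in the falls was not tested. Of the 10 astrocyte markers, 8 fell at E4, from *Slc1a3* (log2 fold change -2.53) to *Gja1* (-4.93), *Gfap* rose (1.10) and *S100b*, which oligodendrocytes express too, was 2141 ± 295 CPM at C and 2208 ± 768 CPM at E4 (0.04, adjusted p = 0.99). Summed Hox genes of the trunk were 715.5 CPM at C, 296.4 at E1, 98.1 at E4 and 274.1 at Ech in the median, summed neuron markers 330.4, 182.4, 92.2 and 192.2 CPM, and oligodendrocyte precursor markers 282.9, 378.8, 525.1 and 1362 CPM. Mural and fibroblast markers were 145.1, 87.4, 12.5 and 29.8 CPM, endothelial markers 6.94, 13.0, 34.3 and 8.08 CPM, myeloid markers 18.4, 54.9, 100.5 and 74.6 CPM and T cell markers 2.81, 8.30, 20.9 and 5.48 CPM. Few genes carried the mural and fibroblast sum. At C and E4, *Col1a2* had means of 84.2 and 8.71 CPM and *Col1a1* of 28.8 and 0.935 CPM. *Pdgfrb* fell too, while *Dcn* and *Lum* were 0 at both stages. *Col3a1*, *Vtn* and *Acta2* went from 0 to means of 0.300 to 1.20 CPM. The endothelial sum was mostly *Kdr* (6.01 and 26.1 CPM), with *Cldn5* at 0.281 and 0.225 CPM and *Tek* at 0. Neither sum is read as an amount of those cells. C replicate 3, the control library with the most oligodendrocyte tags (39350 CPM), was also the one with the least *Sparcl1*.

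To set the members against astrocyte markers of the same library, the level of 6 members was divided by the astrocyte marker sum. This calculation was added after seeing the data. The sum does not measure astrocyte content, since most of its genes fell at E4, where *S100b* had a mean of 2208 of 3234 CPM. Some of the 6 members were near the floor, with 2 to 12 counts of *Thbs2* per library at Ech. At E4 the libraries held 0 to 14 counts of *Gpc5* and 2 to 18 of *Gpc6*. The ratio was taken over all 10 markers and over the 9 without *S100b*. The 36 exact permutation tests over libraries (2-sided) were adjusted together. *Sparcl1* stood at 41.4 ± 2.53% of the 10-marker sum at C, 23.3 ± 4.31% at E1, 11.5 ± 3.38% at E4 and 9.31 ± 3.23% at Ech, with no overlap of any stage with C (exact permutation p = 0.00794 at E1, adjusted p = 0.022, and 0.00216 at E4 and Ech, adjusted p = 0.013, each the smallest p these library numbers allow). Over the 9 markers, whose sum went from 14360 ± 1835 CPM at C to 1025 ± 532 CPM at E4 and 971.1 ± 276 CPM at Ech, *Sparcl1* stood at 47.6 ± 2.99% at C, 30.8 ± 5.80% at E1 (exact permutation p = 0.00794, adjusted p = 0.022), 40.1 ± 11.95% at E4 (adjusted p = 0.302) and 48.7 ± 16.8% at Ech (adjusted p = 0.935). So the fall of *Sparcl1* per astrocyte marker at E4 and Ech was present with *S100b* in the sum and was not detected without it.

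Each of the other members was taken in the same way. In CPM each of them fell at E4 and Ech, as given above. A rise below is thus one of the ratio alone, where the marker sum fell by more than the member. It does not show a higher level per astrocyte. The ratio of *Sparc* was higher at E4 under both sums, from 15.5 ± 3.34 to 30.3 ± 9.97% of the 10 markers (exact permutation, adjusted p = 0.0365) and from 17.8 ± 3.88 to 115 ± 58.9% of the 9 (adjusted p = 0.0156). That of *Megf10* was higher likewise, from 0.510 ± 0.171 to 1.77 ± 0.667% (exact permutation, adjusted p = 0.0278) and from 0.588 ± 0.202 to 6.32 ± 2.70% (adjusted p = 0.0156). *Gpc5* at Ech fell under both sums, from 0.741 ± 0.163 to 0.0598 ± 0.0364% (exact permutation, adjusted p = 0.013) and from 0.850 ± 0.178 to 0.301 ± 0.187% (adjusted p = 0.013), whereas at E4 it fell over the 10 markers (0.0952 ± 0.0755%, adjusted p = 0.013) and not over the 9 (0.532 ± 0.728%, adjusted p = 0.51). *Thbs2* at Ech was 0.0373 ± 0.0206% against 0.174 ± 0.0309% at C over the 10 markers (exact permutation, adjusted p = 0.013) and 0.187 ± 0.109% against 0.200 ± 0.0344% over the 9 (adjusted p = 0.887). *Gpc6* was called at Ech over the 9 markers alone, where it rose from 0.272 ± 0.0759 to 1.12 ± 0.557% (exact permutation, adjusted p = 0.0212). *Sparc* and *Megf10* at Ech likewise rose over the 9 markers (81.6 ± 26.9% and 3.19 ± 1.18%, each adjusted p = 0.0156, exact permutation) and not over the 10 (15.1 ± 2.90%, adjusted p = 0.935, and 0.585 ± 0.126%, adjusted p = 0.51).

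**Figure D3:**
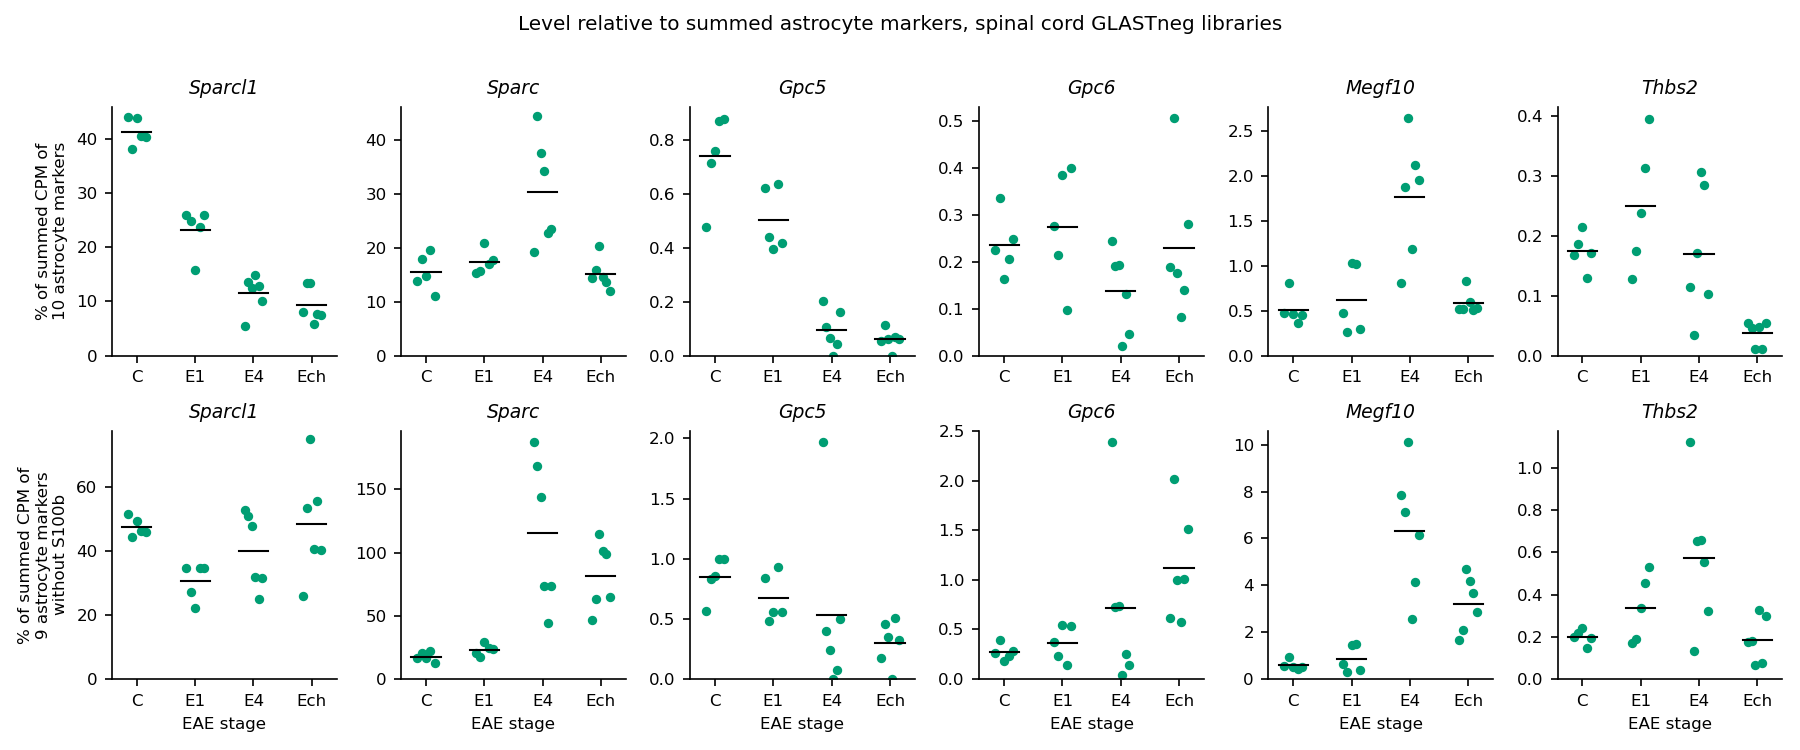
Level of 6 members as a percent of the summed astrocyte markers in SC GLASTneg libraries, with all 10 markers and with the 9 that leave out *S100b*. The x axis gives the stage, the y axis the percent on a linear scale from 0, each point is 1 library and the bar the group mean. *Sparcl1* at E4 stood at 11.5% of the 10 markers against 41.4% at C, and at 40.1% of the 9 markers against 47.6%.

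In hindbrain GLASTneg astrocytes the same stages called no member. The count was 0 of 10 by edgeR at E1, E4 and Ech, where 0.677%, 0.755% and 0.197% of all genes were called. At an unadjusted p under 0.05 stood 1 member at E1 (*Sparc*), 0 at E4 and 1 at Ech (*Thbs4*, at 7 counts or fewer per library), and DESeq2 called 0 at each stage. *Sparc* held 5276 ± 850 CPM (n = 5) at C, 8343 ± 2987 CPM (n = 6) at E1 and 7227 ± 1374 CPM (n = 6) at E4, with a log2 fold change of 0.66 ± 0.24 at E1 (adjusted p = 0.337). *Sparcl1* ranged from 8829 to 13990 CPM over the 23 libraries of this population, with group means of 10610 to 11860 CPM. *Gpc5* had group means of 142.2 to 153.3 CPM, *Gpc6* of 51.7 to 62.1 CPM and *Megf10* of 71.9 to 98.8 CPM. *Chrdl1* at Ech (0 to 2.42 CPM) lay below its controls (2.76 to 7.22 CPM) with a log2 fold change of -2.32 ± 1.47 (adjusted p = 0.773), at 17 counts or fewer per library.

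In hindbrain GLASTpos astrocytes, 1 of 10 members was called at each stage, and it was *Thbs2*, where 1.58%, 2.18% and 1.43% of all genes were called at E1, E4 and Ech (1.32%, 1.75% and 1.24% higher). Control libraries held 0, 0, 0.817, 1.27 and 2.28 CPM, at most 7 counts. E1 libraries ran from 5.87 through 14.7 to 25.04 CPM, E4 libraries from 5.36 through 9.78 to 14.9 CPM, and the 4 Ech libraries held 1.92, 6.35, 8.84 and 11.2 CPM. All E1 and E4 libraries and 3 of 4 Ech libraries were above every control. The log2 fold change was 3.97 ± 0.53 at E1 (adjusted p = 2.6e-07), 3.42 ± 0.52 at E4 (adjusted p = 4.7e-06) and 2.98 ± 0.55 at Ech (adjusted p = 0.00082), and it stayed called without any 1 library (log2 2.62 to 4.64). Beside it, summed myeloid markers in these cells had medians of 39.3, 107, 108.7 and 102.6 CPM at C, E1, E4 and Ech, T cell markers 3.44, 42.8, 30.2 and 15.8 CPM, and mural and fibroblast markers 149, 208, 196.8 and 180.9 CPM, and their part in the rise was not tested. The mural and fibroblast sum, which few genes carried in SC, is not read as an amount of those cells here either.

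*Thbs1* in the same cells was 0 to 2.79 CPM at C, 3.63 to 10.1 CPM at E1 and 1.10 to 21.9 CPM at E4. The E1 libraries did not overlap the controls, but the log2 fold change of 2.80 ± 1.29 missed the threshold (adjusted p = 0.23). *Sparc* was 5248 ± 602 CPM (n = 5) at C, 7790 ± 1625 CPM (n = 6) at E1, 7578 ± 996 CPM (n = 6) at E4 and 2989 ± 898 CPM (n = 4) at Ech. Its E4 and its Ech libraries did not overlap the controls, in opposite directions, and neither difference was called (0.53 ± 0.24, adjusted p = 0.203, and -0.81 ± 0.26, adjusted p = 0.0999). *Gpc6*, at 500.0 ± 103.7 CPM at C, 483.0 ± 165.4 CPM at E4 and 324.3 ± 111.3 CPM at Ech, was not called either, nor was *Sparcl1*, with group means of 10600 to 14170 CPM.

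The response to EAE was then compared between populations in the same fit, as the stage-minus-control change in one population minus that in another. These contrasts share their control and stage libraries with the results above. At E4, SC and HB GLASTneg cells differed for 6 of 10 members, all with the lower response in SC, where 8.56% of all genes differed (6.20% lower). The differences in log2 fold change were -4.08 for *Sparcl1*, -7.05 for *Gpc4*, -5.26 for *Gpc5*, -3.31 for *Gpc6*, -1.88 for *Sparc* and -2.97 for *Thbs2*, that of *Gpc4* being a fitted value that rests on an E4 SC group at 0. At Ech, 8 of 10 differed, where 7.20% of all genes did (5.47% lower), with *Gpc5* (-5.18), *Thbs2* (-4.24), *Gpc4* (-4.01), *Sparcl1* (-3.82), *Sparc* (-1.74), *Gpc6* (-1.51) and *Megf10* (-1.29) lower in SC. The call of *Gpc6* was lost without C HB GLASTneg replicate 4 or without Ech SC replicate 1 or 4 (-1.33 to -1.40, adjusted p from 0.0523 to 0.0533). With the title number as a block, an alternative added after seeing the data, 5 of 10 differed at Ech, with *Gpc6* (-1.23, adjusted p = 0.055), *Megf10* (-1.33, adjusted p = 0.0538) and *Thbs4* no longer called, while at E4 the same 6 members differed. The eighth was *Thbs4* (8.08), which rests on 7 counts in 1 hindbrain control library and 8 counts or fewer per Ech SC library, and which was not called without that control library (3.60, adjusted p = 1). At E1, 0 of 10 differed by edgeR, where 0.214% of all genes did, with 3 at an unadjusted p under 0.05 (*Sparcl1*, *Sparc* and *Megf10*) and 3 called by DESeq2. Without E1 SC replicate 2, the library of that group with the highest astrocyte marker sum (22250 CPM), 4 of 10 differed. The same library set the count of members called at E1 in SC itself, which was 5 without it (*Sparcl1* -2.06, *Megf10* -0.91, *Sparc* -1.11, *Gpc5* -1.73 and *Gpc4*), and it was 1 without E1 replicate 5 and 2 without E1 replicate 1, the library with the conflicting field.

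Against HB GLASTpos cells, the E4 response in SC differed for the same number, 6 of 10, where 13.4% of all genes differed. Among the members called, *Gpc4* had the largest fitted gap (-6.87), which rests on an E4 SC group at 0. *Thbs2* came next (-5.76), since it fell in SC and rose in HB GLASTpos cells. The size of its gap rests on HB GLASTpos controls near the floor, with 0 to 7 counts and 2 of 5 libraries above it. Between the 2 hindbrain populations, 0 of 10 responses differed at E4 by edgeR, where 0.00857% of all genes did. The value for *Thbs2* was 2.79 (adjusted p = 0.14). At an unadjusted p under 0.05 stood 1 member, *Thbs2*, which DESeq2 called (adjusted p = 0.0144) and which was called by edgeR without C HB GLASTpos replicate 3 (3.46, adjusted p = 0.0494). So the rise of *Thbs2* in GLASTpos cells was not shown to differ from the log2 fold change of 0.63 ± 0.40 in GLASTneg cells.

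Unimmunized mice showed which populations held the members to begin with. In hindbrain, 3 of 10 members differed between GLASTpos and GLASTneg controls, where 13.5% of all genes did. *Gpc6* was higher in GLASTpos cells (392.4 to 669.3 CPM against 41.6 to 66.3 CPM, log2 fold change 3.11 ± 0.34, adjusted p = 9.6e-11), *Gpc5* was lower (2.45 to 24.5 against 122.4 to 171.1 CPM, -3.91 ± 0.58, adjusted p = 4.2e-07), and *Thbs2* was lower (0 to 2.28 against 27.0 to 48.6 CPM, -5.21 ± 0.54, adjusted p = 1.7e-11). In none of the 3 did the groups overlap. The neighbouring glypican genes *Gpc5* and *Gpc6* thus had opposite order in these populations. GLASTpos cells also held 5628 to 7005 CPM of 5 Bergmann glia markers, against 832 to 1037 CPM in GLASTneg cells, so that the glutamate transporter split and this cell type cannot be told apart. In the titles, the last number ran from 32 to 51 in the GLASTneg controls and from 68 to 95 in the GLASTpos controls. The labels do not explain this number, and its effect cannot be told apart from the GLAST split here. A term for it rests on diseased SC libraries alone and cannot separate them. The median log2 fold change of all genes was -0.11 here (-0.16 with DESeq2 size factors).

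Between SC and HB GLASTneg controls, 1 of 10 members differed, where 5.33% of all genes did. *Sparc* was lower in SC (1889 to 3591 CPM against 4404 to 6553 CPM, log2 fold change -1.05 ± 0.25, adjusted p = 0.0027), with no overlap. *Sparcl1* did not overlap either (4987 to 7504 against 10970 to 12300 CPM) and narrowly missed the threshold (-0.79 ± 0.27, adjusted p = 0.0695). The oligodendrocyte sum in SC, given above, is part of the total against which both levels are scaled. The last number in the titles was 60 to 83 in the SC controls and 32 to 51 in the HB GLASTneg controls. Its effect and that of region cannot be told apart here.

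Ordered by mean level over the 12 groups, the members fell into patterns. *Sparcl1* stood highest in the 8 hindbrain groups, neighbours of which overlapped in range, and lowest in the 4 SC groups, with a gap in range between Ech HB GLASTpos and C SC. *Sparc* had its gap between Ech HB GLASTneg and Ech HB GLASTpos. *Gpc6* stood highest in the 4 HB GLASTpos groups, with a gap below them, while for *Gpc5* the order ran from the 4 HB GLASTneg groups over C SC and E1 SC to the GLASTpos groups and the E4 and Ech SC groups with all neighbours overlapping. *Megf10* and *Gpc4* showed no gap between neighbours. Genes whose group means over the 12 groups followed a member most closely, among 11261 genes compared, were *Gpr37l1* (Pearson r = 0.997) and *Rfx4* (0.997) for *Sparcl1*, *Ccdc141* (0.996) and *Kcnk1* (0.992) for *Gpc5*, *Ddah1* (0.993) and *Aldh6a1* (0.993) for *Gpc6*, *Ttpa* (0.991) and *Parva* (0.990) for *Gpc4*, *Adk* (0.985) and *Zhx3* (0.982) for *Sparc*, *Smarcd2* (0.962) and *Crispld2* (0.940) for *Thbs2*, *Arhgef18* (0.956) and *Pnpla7* (0.941) for *Megf10*, and *Ctnnbl1* (0.918) and *Cd47* (0.882) for *Thbs1*. The points are group means that share libraries and their cell makeup, and no p is given. *Thbs4* and *Chrdl1* never reached 10 CPM in a group, and their likest genes were *Rbm4* (0.812) and *mt-Tm* (0.773) for the former and *Tbc1d31* (0.854) and *Zfp763* (0.827) for the latter.

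In naive FVB/N mice the question was how the members differ among astrocytes of forebrain, hindbrain and spinal cord. The labels of these libraries could not be taken as they stood. The libraries labelled HB GLASTneg held 712.4 to 759.4 CPM of the 10 trunk Hox genes and those labelled SC GLASTneg 0 to 8.86 CPM, while Bergmann glia markers were at 6077 to 6519 CPM in the libraries labelled SC GLASTneg and at 338 to 393.9 CPM in those labelled HB GLASTpos. In the study's own normalised counts the libraries labelled FB GLASTpos bear the name HB GLASTneg, those labelled HB GLASTneg the name SC, those labelled HB GLASTpos the name FB GLASTpos, and those labelled SC GLASTneg the name HB GLASTpos, with FB GLASTneg named alike. Each level below is therefore given for the libraries labelled so, and an F test over the 5 groups, which does not depend on their names, was used first.

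That test called 7 of 10 members, where 10.2% of 14957 genes were called. *Chrdl1* differed most (adjusted p = 2.3e-22). It held 58.2, 88.4 and 190.0 CPM in the libraries labelled FB GLASTneg and 129.5, 157.4 and 174.5 CPM in those labelled HB GLASTpos, but 0, 0 and 1.17 CPM in those labelled FB GLASTpos, 0, 0 and 2.35 CPM in those labelled HB GLASTneg and 4.92, 9.92 and 16.1 CPM in those labelled SC GLASTneg. Both groups with high *Chrdl1* bear a forebrain name in the study's own normalised counts, and their levels did not overlap those of any other group.

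*Sparc* ran the other way (adjusted p = 3.3e-17). It held 939.0, 993.6 and 1125 CPM in the libraries labelled HB GLASTpos and 1135, 1751 and 1994 CPM in those labelled FB GLASTneg, against 2761, 4058 and 4221 CPM in those labelled FB GLASTpos, 3003, 3022 and 3778 CPM in those labelled HB GLASTneg and 4095, 5455 and 6269 CPM in those labelled SC GLASTneg. The groups low in *Sparc* were thus the groups high in *Chrdl1*.

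*Gpc6* (adjusted p = 1.3e-09) was highest in the libraries labelled SC GLASTneg at 171.1, 295.4 and 365.3 CPM, the group with Bergmann glia markers, and was 29.3 to 122.3 CPM in the other groups. *Thbs2* (adjusted p = 0.0012) was 25.1, 42.3 and 78.8 CPM in the libraries labelled HB GLASTneg and 17.3, 31.6 and 45.6 CPM in those labelled FB GLASTpos, and 0 to 20.3 CPM in the other groups. *Gpc5* (adjusted p = 0.0048) was 17.4, 39.4 and 91.3 CPM in the libraries labelled SC GLASTneg and 82.3 to 190.5 CPM elsewhere. High *Gpc6* beside low *Gpc5* was thus seen in the group with Bergmann glia markers of both mouse strains, which were counted and normalised apart and not tested against each other.

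*Megf10* (adjusted p = 0.029) was 187.6 to 230.9 CPM in the libraries labelled FB GLASTneg and HB GLASTpos and 57.03 to 176.2 CPM in the others, and *Sparcl1* (adjusted p = 0.030) was 9160 to 18040 CPM throughout. *Gpc4* (5.84 to 36.7 CPM) was not called, and neither were *Thbs1* (0 to 8.37 CPM) and *Thbs4* (0 to 4.89 CPM, with 13.7 CPM in 1 library labelled FB GLASTneg).

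**Figure D4:**
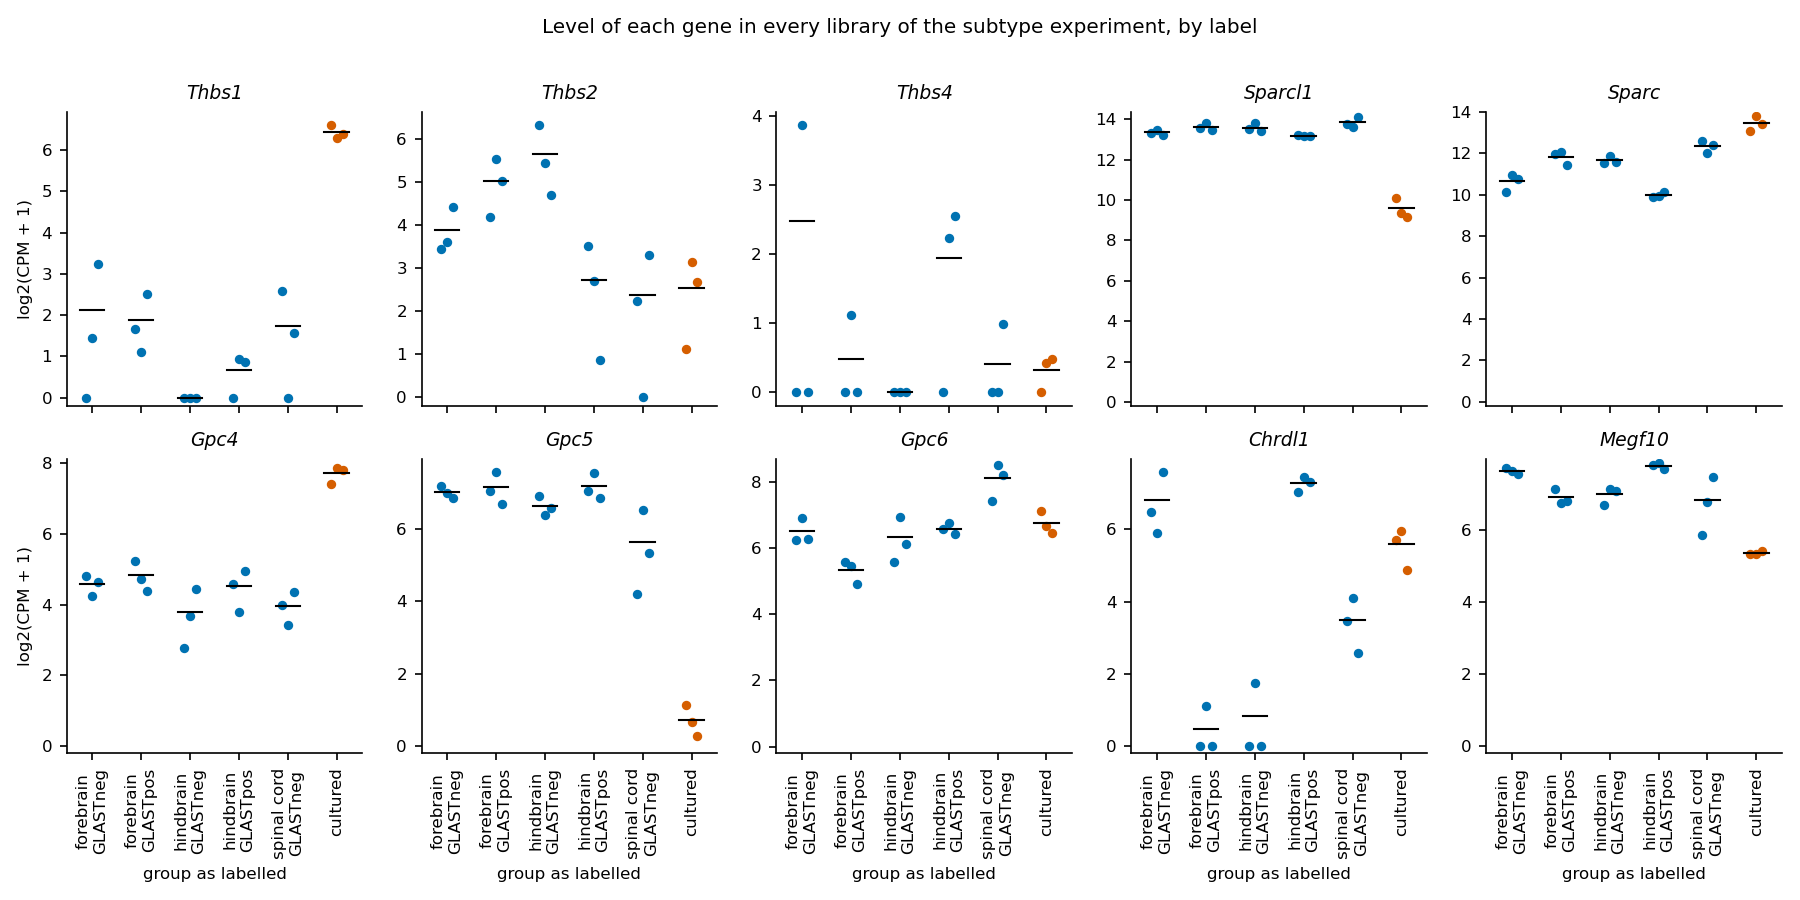
Level of each member in the 5 FVB/N groups, under the names on their labels, and in cultured neonatal astrocytes. Each panel is 1 gene, the x axis gives the group, the y axis log2 of CPM plus 1, each point is 1 of 3 libraries per group and each bar the group's mean CPM on that scale. *Chrdl1* stood at 58.2 to 190.0 CPM in the libraries labelled FB GLASTneg and HB GLASTpos and at 16.1 CPM or below in the other isolated groups, and *Thbs1* stood at 77.8 to 96.3 CPM in culture.

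Pairs of groups were then taken under the labels. The libraries labelled FB GLASTpos differed from those labelled FB GLASTneg in 2 of 10 members (1.32% of all genes), with *Chrdl1* at least 31.9-fold lower against the floor (adjusted p = 3.6e-13) and *Sparc* higher by 1.18 on the log2 scale (adjusted p = 2.7e-05). The libraries labelled HB GLASTpos differed from those labelled HB GLASTneg in 3 of 10 (4.29% of all genes), with *Chrdl1* at least 21.8-fold higher (adjusted p = 9.1e-14), *Sparc* at -1.69 (adjusted p = 4.5e-10) and *Thbs2* at -3.16 (adjusted p = 0.0099, lost without any of 3 single libraries, labelled HB GLASTneg replicate 2 and HB GLASTpos replicates 1 and 3, at -2.60 to -3.19). The libraries labelled SC GLASTneg differed from those labelled HB GLASTneg in 4 of 10 (7.47% of all genes), with *Chrdl1* at least 1.46-fold higher (adjusted p = 0.0024), *Gpc6* at 1.81 (adjusted p = 6.1e-05), *Sparc* at 0.67 (adjusted p = 0.024, lost without any of 3 single libraries, labelled HB GLASTneg replicates 1 and 2 and SC GLASTneg replicate 1) and *Thbs2* at -3.50 (adjusted p = 0.0029). Under the group names of the study's own normalised counts the forebrain pair and the SC and HB GLASTneg pair had 0 members called by edgeR (0.181% and 1.40% of all genes), with 1 member each at an unadjusted p under 0.05, and *Chrdl1* at 0.48 and *Sparc* at -0.67 in the forebrain pair. Under those names the HB pair had 4 of 10 members called (4.11% of all genes), *Gpc6* higher in GLASTpos cells (2.79 ± 0.36, adjusted p = 6.2e-09), *Gpc5* lower (-1.53 ± 0.36, adjusted p = 0.0030), *Thbs2* lower (-2.85 ± 0.85, adjusted p = 0.034) and *Chrdl1* higher (4.31 ± 0.93, adjusted p = 0.00077). The size of the *Chrdl1* value depends on the prior count. The libraries named HB GLASTneg there, labelled FB GLASTpos, held 0 to 1 counts of it, all at the floor. Side by side, the C57BL/6 controls had 3.11, -3.91 and -5.21 for *Gpc6*, *Gpc5* and *Thbs2* and -3.24 (adjusted p = 0.165) for *Chrdl1*, which was at 0.417 CPM in GLASTpos and 4.32 CPM in GLASTneg controls in the mean, in ranges that did not overlap.

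Cultured neonatal astrocytes differed from the mean of the isolated FVB/N groups in 7 of 10 members, 4 higher, where 26.3% of 17126 genes were, and 3 lower, where 9.79% were. The median log2 fold change of all genes was 0.43 (0.32 with DESeq2 size factors). It was 0.28 over the 14568 genes left once the lowest in CPM were dropped. The values that follow may thus hold a shift whose size depends on the genes counted, and none was taken off. *Thbs1* was 77.8, 82.5 and 96.3 CPM in culture and 0 to 8.37 CPM in the 15 isolated libraries (log2 fold change 6.39 ± 0.58, adjusted p = 4.6e-12). *Gpc4* was 169.5, 223.0 and 233.9 CPM against 5.84 to 36.7 CPM (3.42, adjusted p = 2.0e-14), and *Sparc* was 8552, 10960 and 14480 CPM against 939 to 6269 CPM (2.16, adjusted p = 3.8e-16), both without overlap. *Chrdl1*, at 28.2, 51.3 and 61.4 CPM, was called higher than the mean of the isolated groups (2.46, adjusted p = 4.1e-06) but lay inside the range of the isolated libraries.

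Lower in culture were *Gpc5*, at 0.200, 0.572 and 1.19 CPM (log2 fold change -7.36, adjusted p = 1.8e-15), *Sparcl1*, at 570.8, 657.7 and 1090 CPM (-3.93, adjusted p = 7.5e-20), and *Megf10*, at 39.4, 39.7 and 41.8 CPM (-1.89, adjusted p = 2.0e-07), each below all isolated libraries. *Gpc6* (0.20), *Thbs2* (-1.45, adjusted p = 0.084) and *Thbs4* were not called. The cultures also held an astrocyte marker sum with a mean of 5790 CPM, 793 to 2976 CPM of mural and fibroblast markers, 316 to 2505 CPM of myeloid markers and 620 to 1191 CPM of ependymal markers. The effects of mouse strain, of age and of culture cannot be told apart here, and the part of the other cell types was not tested.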

How the data were processed

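Libraries were made with the QuantSeq 3′ mRNA-Seq kit (FWD) and read as single 50-base reads. Per the labels and the study's methods, the authors aligned reads to GRCm38 with HISAT 0.1.5 and counted them per gene with HTSeq 0.6.1p1 in union mode, and they deposited the raw counts used here, one table for EAE and one for the subtypes. Whether counting used the strand is not given in the sources used here, so tags of *Thbs1*, *Sparcl1*, *Gpc5* and *Gpc6* and of the antisense genes that overlap them may not be separated. A 3′ tag count measures the end of a transcript and carries no molecular identifier, so floors cover counting error only.

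Identifiers were matched to symbols of the GRCm38 annotation. The counts were tested with edgeR 4.0.16 in R 4.3.3 (quasi-likelihood, TMM scaling, total of at least 10 counts, 2-sided, Benjamini-Hochberg over all genes of each fit): 1 fit over the 12 EAE groups, 1 over the 5 FVB/N groups and 1 with the cultures added, which also gave the CPM of the FVB/N libraries. The simulated 200 changed genes were used to test the scripts. Fits without single libraries reused the genes and the dispersion trend of the full fit. Alternatives were DESeq2 1.42.0, its size factors, other filters on low counts, a term for the last number in the EAE titles (up to 56 or above, which the labels do not explain), the replicate number as a block and, for FVB/N, the group names of the study's own normalised counts.

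The members and all gene lists were chosen with earlier results of these data known. Named partner genes were the 2 most changed in each direction per list among those called at E4 in SC, and likest genes the 2 with the highest Pearson correlation of mean log2 CPM over the 12 EAE groups among genes at 10 CPM or more in a group. The E1 and Ech response differences, the E4 response against HB GLASTpos cells the ratio to astrocyte markers and a block of the first number in the EAE titles (the first of a pool) were added after seeing the data. For the ratio, *Gpc4*, *Thbs1*, *Thbs4* and *Chrdl1* were left out as too low, *S100b* was dropped from the second sum after it was seen not to fall, and a first version on a log scale was replaced by the difference of means because of zeros. Exact permutation tests used scipy 1.17.1. The authors' own lists of changed genes were not used. A partner gene that the naming rule picked is not reported here.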

Additional observations from a re-analysis of the deposited data

Results flagged for a closer look

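Single libraries that stood apart from the rest of their group by Dixon's test were found in 15 of the 109 sets of 4 to 6 libraries that were examined. Chance gives about 1 in 20 for normally distributed values. Many of the flagged sets held a few counts in 1 library beside values at or near 0. That rate does not apply to them, and no excess is read from the count. *Thbs1* stood high in Ech HB GLASTpos replicate 1 (4.60 CPM), E1 SC replicate 1 (3.49 CPM) and E4 SC replicate 2 (70.1 CPM). *Chrdl1* stood high in Ech HB GLASTpos replicate 2 (3.59 CPM), C SC replicate 2 (7.87 CPM) and E4 SC replicate 5 (1.37 CPM). *Gpc4* stood high in Ech HB GLASTneg replicate 1 (16.1 CPM), E1 SC replicate 2 (17.8 CPM) and Ech SC replicate 3 (1.06 CPM). *Thbs4* stood high in C HB GLASTneg replicate 3 (4.66 CPM), E1 SC replicate 1 (1.49 CPM) and Ech SC replicate 3 (1.69 CPM). Among the better measured members, *Sparc* stood high in E1 SC replicate 2 (3486 CPM) and *Gpc5* in Ech HB GLASTpos replicate 1 (67.01 CPM), and *Sparcl1* stood low in C SC replicate 3 (4987 CPM). E1 SC replicate 2 was the library of its group with the highest astrocyte marker sum, and C SC replicate 3 the control library with the highest oligodendrocyte marker sum.

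The response to EAE differed between populations, by a test of the difference itself in edgeR, for 20 pairs of a member and a comparison. In SC minus HB GLASTneg cells at E4 these were *Sparcl1* (-4.08), *Gpc4* (-7.05), *Gpc5* (-5.26), *Gpc6* (-3.31), *Sparc* (-1.88) and *Thbs2* (-2.97), and at Ech *Sparcl1* (-3.82), *Gpc4* (-4.01), *Gpc5* (-5.18), *Gpc6* (-1.51), *Sparc* (-1.74), *Thbs2* (-4.24), *Megf10* (-1.29) and *Thbs4* (8.08, on 8 counts or fewer per library). In SC minus HB GLASTpos cells at E4 they were *Sparcl1* (-4.15), *Gpc4* (-6.87), *Gpc5* (-3.83), *Gpc6* (-3.16), *Sparc* (-1.96) and *Thbs2* (-5.76). All values are differences in log2 fold change, and those of *Gpc4* at E4 depend on the prior count, since all 6 E4 SC libraries were at 0.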

How the results depend on the processing

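The falls of *Sparcl1*, *Gpc5*, *Gpc4*, *Gpc6*, *Thbs2* and *Sparc* in SC at E4 and Ech kept their direction and their call under DESeq2, its size factors, both other filters, a term for the last number in the EAE titles (up to 56 or above) and every fit without 1 library. That number follows the groups: all HB GLASTneg libraries were at 56 or below, all HB GLASTpos and all 5 SC control libraries above, and in SC 1 of 5 E1, 5 of 6 E4 and 2 of 6 Ech libraries at 56 or below, so that the term rests on the diseased SC libraries alone and can hardly be told apart from the E4 stage. E4 SC replicate 3, the only E4 SC library above 56, held 304.2 CPM of *Sparcl1* and 1.56 CPM of *Gpc5*. The term left 2 members called for Ech against E4 and 2 for SC against HB GLASTneg controls, and ended the call of *Megf10* (-0.40, adjusted p = 0.429) and *Thbs1* (6.36, adjusted p = 0.0731) at E4 in SC, of *Gpc4* in the E4 response against HB GLASTneg (-5.00, adjusted p = 0.113) and HB GLASTpos cells (-4.81, adjusted p = 0.0914), and of *Gpc6* in the Ech response (-1.31, adjusted p = 0.0585). DESeq2 called 1 member for the E4 response of the 2 hindbrain populations, 3 for the E1 response in SC and 2 for SC against HB GLASTneg controls, and without a filter on low counts the last 2 comparisons had 2 and 2. The group names of the study's own normalised counts put other libraries into each FVB/N pair, so these are not the same comparisons as under the labels. Under those names the forebrain pair and the SC and HB GLASTneg pair had 0 and 0 members called. Values of the other direction than under the labels were *Sparc* -0.67 and *Chrdl1* 0.48 in the forebrain pair, *Sparc* 0.51 in the HB pair, and *Sparc* -0.16 and *Thbs2* 0.65 in the SC pair. With the 9 astrocyte markers in place of 10, the ratio of stage to control turned for *Sparcl1* at Ech (1.02), *Sparc* at Ech (4.59), *Gpc6* at E4 (2.63) and Ech (4.13) and *Thbs2* at E4 (2.87).

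Without single libraries the members called were 1 to 5 for E1 in SC, 6 to 8 for E4 in SC, 2 to 4 for Ech against E4, 0 to 1 for the E4 response of the hindbrain populations and 0 to 4 for the E1 response in SC, and *Thbs1* for Ech against E4 ran from -5.46 to 0.85, the latter without E4 SC replicate 2. Same-numbered replicates did not deviate together (mean correlation of their deviations -0.00596 in the EAE table and -0.0108 in the subtype table), so the number was not taken as a pairing. The number as a replicate block ended 2 calls, *Thbs1* for Ech against E4 (-3.83, adjusted p = 0.112) and *Thbs4* for the Ech response (6.84, adjusted p = 0.196), and moved no count of members by over 1.5 times. The first number in the EAE titles recurs across populations within a stage (2 to 5 numbers shared by a pair of populations), and libraries that share it had a mean correlation of deviations of 0.0536 (-0.147 to 0.287, 40 pairs) against -0.00626 for other pairs. With it as a block, 2 members were called for the E1 response, 5 for the Ech response and 2 between SC and HB GLASTneg controls, and the counts for the other comparisons between populations stayed at 6, 0, 6 and 3. Except where stated, the cause of a change was not tested. In the EAE libraries *Thbs4*, *Chrdl1* and, in SC, *Thbs1* were mostly at or near the floor of 3 counts, where small changes were not detectable.

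Over all genes, the counts called moved by more than 1.5 times under several settings. With the last-number term they went from 5233 to 2415 at E4 in SC, from 1037 to 344 for Ech against E4, from 1996 to 804 and from 3119 to 1291 for the E4 response of SC against HB GLASTneg and GLASTpos cells, from 3157 to 1745 between hindbrain controls and from 1244 to 782 between SC and HB GLASTneg controls. DESeq2 called 269 and 93 genes in HB GLASTneg cells at E1 and Ech (158 and 46 by edgeR), 622, 786 and 789 in HB GLASTpos cells at the 3 stages (369, 508 and 333), 1604 for Ech against E4, 16 for the E4 response of the hindbrain populations (2) and 261 for the E1 response in SC (50). Without a filter on low counts these were 251 and 98 in HB GLASTneg cells at E1 and Ech, 501 in HB GLASTpos cells at Ech, 10 for the hindbrain E4 response and 115 for the E1 response in SC, where edgeR's own filter gave 83. Under the other group names of the FVB/N libraries the forebrain pair went from 197 to 27 and the SC pair from 1117 to 210. With the first title number as a block the E4 response went to 1262 (SC and HB GLASTneg), 76 (hindbrain) and 1859 (SC and HB GLASTpos), the E1 response to 378 and SC against HB GLASTneg controls to 775.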
